A study of Mus musculus with 6 samples.

Results

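The sirtuins are the 7 genes Sirt1 to Sirt7, and they were taken by symbol from a table of 23361 genes measured in mouse taste cells. All 7 symbols were found, each in 1 row. The taste cells came from 2 kinds of papillae, the circumvallate (CV) and the foliate (Fol), trenches at the back and sides of the tongue that hold many taste buds. They were isolated from C57BL/6 mice at 2 months or at 6 months of age, with 3 libraries for each age, and the labels name no treatment or altered allele for either age. Cells of several mice were pooled for each library, with more mice per pool at 2 months. Each gene has 1 value per age in FPKM (the fragments mapped to it, divided by its transcript length and by the size of the library), estimated from all 3 libraries of that age together. These values are the authors' own. No SD or test can be given from such pooled values, and a difference between the ages cannot be set against the spread between pools. In such a mixture of cells, fewer cells of a type and less RNA per cell cannot be told apart.

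Sirtuins are enzymes that remove acetyl and other acyl groups from lysines of proteins, and they use up NAD+, the carrier of electrons in metabolism, in each reaction. Their activity therefore depends on the NAD+ that a cell makes, and they release nicotinamide, which inhibits them. Sirt1, Sirt6 and Sirt7 are mainly nuclear, Sirt2 is mainly cytoplasmic, and Sirt3, Sirt4 and Sirt5 work in mitochondria. They are studied widely for their part in metabolism, genome maintenance and ageing.

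Transcripts of all 7 sirtuins were detected at both ages, and the largest difference between 2 and 6 months was that of Sirt2, whose 6 month level was 0.876 times the 2 month level. Sirt7 and Sirt2 had the highest levels and Sirt5 the lowest. The order of the 7 genes by FPKM was the same at both ages.

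**Figure D1:**
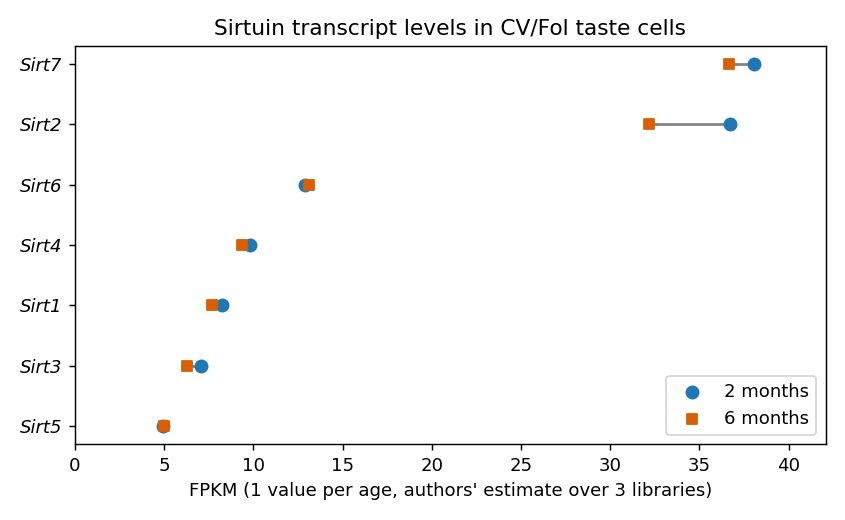
FPKM of each sirtuin (x axis) in CV/Fol taste cells at 2 months (blue circles) and 6 months (orange squares), with a grey line joining the ages of a gene and 1 value per gene and age. Sirt7 and Sirt2 lie above 30 FPKM at both ages, and the other genes lie between 4.91 and 13.1 FPKM.

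Of the nuclear members, Sirt7, an enzyme of the nucleolus that is known to act on ribosomal DNA, had 38.1 FPKM at 2 and 36.7 FPKM at 6 months. Its difference on the log2(FPKM + 1) scale, 6 minus 2 months, was -0.05. Sirt6, a chromatin enzyme with known roles in DNA repair and in the repression of glycolytic genes, had 12.9 FPKM at 2 and 13.1 FPKM at 6 months, a log2 difference of 0.02. Sirt1, the member closest to yeast Sir2 and a deacetylase of p53, FoxO factors and PGC-1alpha, had 8.27 and 7.71 FPKM. The log2 difference of Sirt1 was -0.09. Together the 3 nuclear members summed to 59.3 FPKM at 2 and 57.5 FPKM at 6 months.

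Sirt2, a deacetylase of tubulin and other cytoplasmic proteins, had 36.7 FPKM at 2 and 32.2 FPKM at 6 months. Its log2 difference of -0.19 was the largest in size among the 7 genes. A difference of this size or larger, in either direction, was seen for 20.5% of expressed genes, which are the 12652 genes whose mean over both ages was 1 FPKM or more. Among 2165 other genes whose mean FPKM was within 1.5-fold of that of Sirt2, the share was 17.7%.

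The mitochondrial members were the least abundant as a group. Sirt3, the main protein deacetylase of the mitochondrial matrix, had 7.09 FPKM at 2 and 6.31 FPKM at 6 months, a log2 difference of -0.15. A difference at least this large was seen for 30.5% of expressed genes. Sirt4, which has ADP-ribosyltransferase and lipoamidase activity, had 9.84 and 9.38 FPKM, a log2 difference of -0.06. Sirt5, which removes succinyl, malonyl and glutaryl groups, had 4.91 FPKM at 2 and 5.01 FPKM at 6 months, a log2 difference of 0.02. The 3 genes summed to 21.8 and 20.7 FPKM, or 18.5% of the summed sirtuin FPKM at 2 months and 18.8% at 6 months.

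FPKM is scaled to transcript length, so the levels of the 7 genes can be set side by side within an age. Sirt7 was 7.75 times as high as Sirt5 at 2 months and 7.32 times as high at 6 months. Sirt7 and Sirt2 were close at 2 months, with a ratio of 1.04, and had a ratio of 1.14 at 6 months. The largest step in the order was that from Sirt2 down to Sirt6, 2.84-fold at 2 months and 2.45-fold at 6 months. Below it, Sirt6, Sirt4, Sirt1, Sirt3 and Sirt5 followed each other in steps of 1.17-fold to 1.44-fold at 2 months. Without values of single libraries it is not known which of these smaller steps exceed the spread between pools.

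Sirt7 and Sirt2 together held 63.5% of the summed sirtuin FPKM at 2 months and 62.4% at 6 months. The sum over the 7 genes was 117.8 FPKM at 2 and 110.4 FPKM at 6 months, a ratio of 0.937. Sirt7 had a higher level than 80.8% of the 12652 expressed genes at 2 months, and Sirt2 than 80.2%. The level of Sirt6 was above 52.5% of them, and Sirt5, at the low end, was above 26.2%.

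The members' differences were then set against those of the whole table. A 1.5-fold difference on the log2(FPKM + 1) scale was reached by 0 of the 7 sirtuins, and by 2.77% of the 12652 expressed genes. A lower bar, a log2 difference of 0.32 in size, was reached by 0 of the 7 and by 7.18% of expressed genes. With so few members, a count of 0 is near what these shares give. At 6 months, 5 sirtuins had the lower value and 2, Sirt5 and Sirt6, the higher value, while 46.3% of expressed genes had the higher value at 6 months. The median log2 difference was -0.06 over the 7 sirtuins and -0.01 over expressed genes, whose quartiles were -0.10 and 0.08. Sirt1, Sirt4, Sirt5, Sirt6 and Sirt7 lay within these quartiles, and Sirt2 and Sirt3 lay below the lower one.

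**Figure D2:**
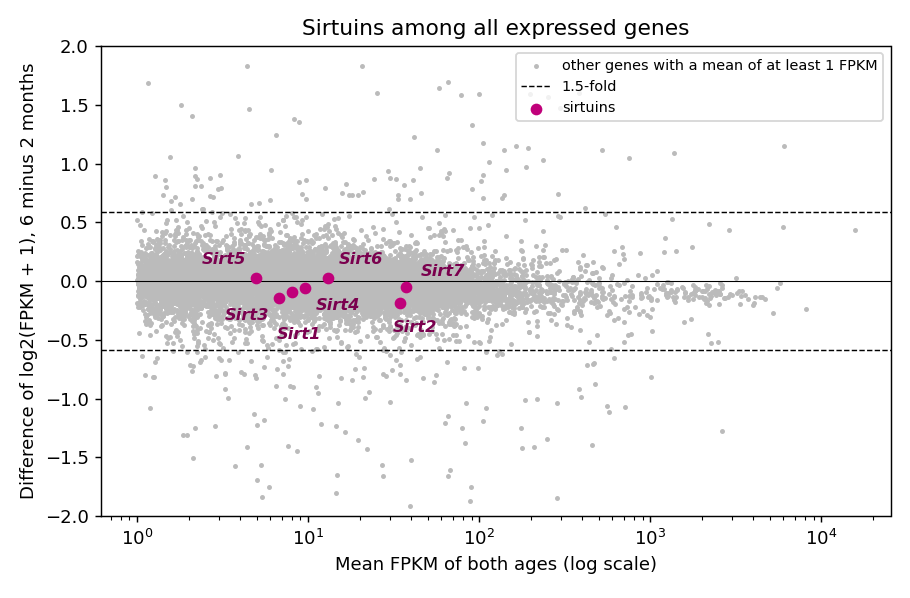
Difference of log2(FPKM + 1), 6 minus 2 months (y axis), against mean FPKM of both ages on a log axis, for expressed genes (grey points) and the 7 sirtuins (magenta, named), with dashed lines at a 1.5-fold difference. The sirtuins lie between -0.19 and 0.02, inside the band of grey points, and 112 genes with differences beyond 2 in either direction are not drawn.

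By Euclidean distance of log2(FPKM + 1) over the 2 ages, the genes nearest to Sirt7 were Wls, Stard5 and Zmynd11, at distances of 0.01, 0.01 and 0.02. The genes nearest to Sirt2 were Rbm8a, U2af1l4 and Ltbr, each at a distance of 0.02. With only 2 values per gene, this is a likeness in level only, and how many other genes lie about as close was not counted.

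All 7 loci are given in GRCm38 with GENCODE M21 annotation, the build to which the authors mapped their reads. Sirt1 lies on the minus strand of chromosome 10 from 63319005 to 63381704, and Sirt6 on the minus strand of the same chromosome from 81621785 to 81627797. Sirt2 and Sirt3 are both on chromosome 7, Sirt2 on the plus strand from 28766735 to 28788661 and Sirt3 on the minus strand from 140863666 to 140882309. Sirt4 lies on the minus strand of chromosome 5 from 115478010 to 115484725. Sirt5 lies on the plus strand of chromosome 13 from 43365496 to 43395203, and Sirt7 on the minus strand of chromosome 11 from 120618372 to 120625240.

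In GENCODE, several sirtuins share annotated bases with a neighbour. The authors quantified RefSeq genes, and shared exonic bases were counted here only in GENCODE. By RefSeq spans, Psmd13, Nfkbib and Mafg lie 85, 108 and 103 bases from the starts of Sirt3, Sirt2 and Sirt7. Reads in bases shared in the annotation used can be assigned to either gene, unless strand is used to separate genes on opposite strands. Whether strand was used in the counting is not given in the sources used here. Sirt3 shares 342 exonic bases with Psmd13, a proteasome subunit gene on the opposite strand that had 63.9 FPKM at 2 and 62.6 FPKM at 6 months. It shares 418 exonic bases with Ric8a, listed under its older symbol Ric8, which had 23.5 and 23.3 FPKM. Sirt3 has 5973 exonic bases over its annotated transcripts, and its level was lower than that of both neighbours.

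In GENCODE, Sirt7 shares 124 exonic bases with Mafg, a small Maf transcription factor gene on the same strand. Mafg had 22.3 FPKM at 2 and 25.7 FPKM at 6 months. Sirt2 shares 42 exonic bases in GENCODE with Nfkbib, which encodes an inhibitor of NF-kappaB and had 16.6 and 17.0 FPKM. Sirt6 starts 29 bases from Ankrd24 by RefSeq spans, and Ankrd24 had 4.41 and 4.51 FPKM. The nearest listed genes to the starts of Sirt1, Sirt4 and Sirt5 were Herc4, Pxn and Nol7. Herc4 had 17.1 and 18.7 FPKM, Pxn 17.0 and 16.1 FPKM, and Nol7 33.0 and 29.7 FPKM. None of the named neighbours reached a log2 difference of 0.32 in size between the ages, beside 7.18% of expressed genes. With so few neighbours, this is near what that share gives.

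Promoter windows of 300 bases, from 250 bases before to 50 bases after a RefSeq start in GRCm38.p6, were matched for all 7 genes by symbol, with 2 windows each for Sirt3 and Sirt6. All 9 windows were richer in CpG dinucleotides than the median of 7 over 32851 promoter windows, and they held from 15 to 47. The upper quartile over all windows was 20. The windows of Sirt2, Sirt4, Sirt5 and Sirt7, with 16, 15, 15 and 17, lay below it, and a Sirt6 window lay at 20. The Sirt1 window was the richest, with 47 CpG and 79.0% G and C, and 98.6% of promoter windows held fewer CpG.

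**Figure D3:**
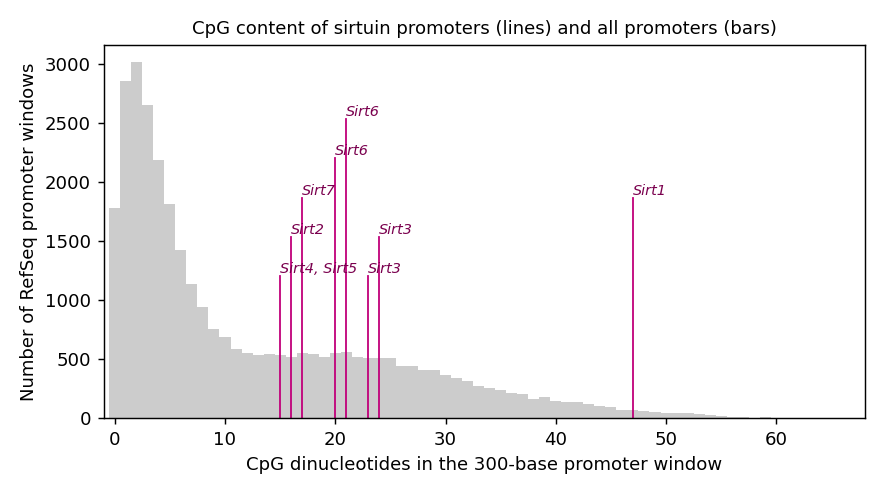
Number of RefSeq promoter windows (y axis) by their count of CpG dinucleotides (x axis) as grey bars, with a line for each count at which a sirtuin window lies; line heights only separate the names. The sirtuin windows lie between 15 and 24 CpG except that of Sirt1 at 47. The median of all windows is 7 and their upper quartile is 20.

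The letters of 7 motifs were searched on both strands of the 9 windows. The AP-1 motif TGACTCA, to which Fos and Jun proteins bind, was in 0 of the 9 sirtuin windows and in 5.20% of all promoter windows. The CRE TGACGTCA and the FoxO motif GTAAACA were also in 0 of the 9, and in 1.79% and 3.65% of all windows. The GC box GGGCGG was in 6 of the 9 windows and in 35.7% of all windows, and the ETS motif CCGGAAG was in 3 of the 9 and in 8.86% of all windows. The E-box CACGTG was in 1 of the 9, that of Sirt1, and in 7.15% of all windows. The CCAAT box, CCAAT, was in 3 of the 9 windows and in 37.4% of all. No motif's letters are contained in those of another. A match is only a run of letters, and the absence of a match says nothing about binding.

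The parts of 2 promoters that lie before the RefSeq start of the gene, outside every exon annotated in GENCODE, show the contrast between the GC-rich window of Sirt1 and the more mixed one of Sirt2, the member with the largest difference. The GENCODE span of Sirt1 begins further upstream than its RefSeq start, so the Sirt1 stretch lies within that span but outside its exons. Capitals mark GC boxes and E-boxes on either strand, and each is written 5′ to 3′ along the strand of its gene.
Sirt1, chr10:63339051-63339200, minus strand: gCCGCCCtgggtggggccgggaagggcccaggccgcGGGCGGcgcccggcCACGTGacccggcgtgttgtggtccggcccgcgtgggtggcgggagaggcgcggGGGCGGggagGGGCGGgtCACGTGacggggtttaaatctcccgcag
Sirt2, chr7:28766641-28766734, plus strand: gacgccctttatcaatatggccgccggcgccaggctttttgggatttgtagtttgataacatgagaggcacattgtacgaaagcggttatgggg
The Sirt1 stretch of 150 bases holds 4 GC boxes and 2 E-boxes, and the Sirt2 stretch of 94 bases holds none of the 7 motifs. These stretches are only parts of the promoter windows. The whole Sirt2 window holds 1 GC box and 2 CCAAT boxes, and the whole Sirt1 window holds 7 GC boxes and 2 E-boxes.

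The genes around the sirtuins were described from lists of NAD+ synthesis and use, sirtuin regulators, substrates and targets, and the zinc-dependent deacetylases. Of 155 listed genes, each counted once, all were in the table and 135 were expressed. A 1.5-fold difference was reached by 0 of these 135, beside 2.77% of expressed genes. A log2 difference of 0.32 in size was reached by 6 genes that were higher and by 5 that were lower at 6 months, beside 2.95% and 4.23% of expressed genes.

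**Figure D4:**
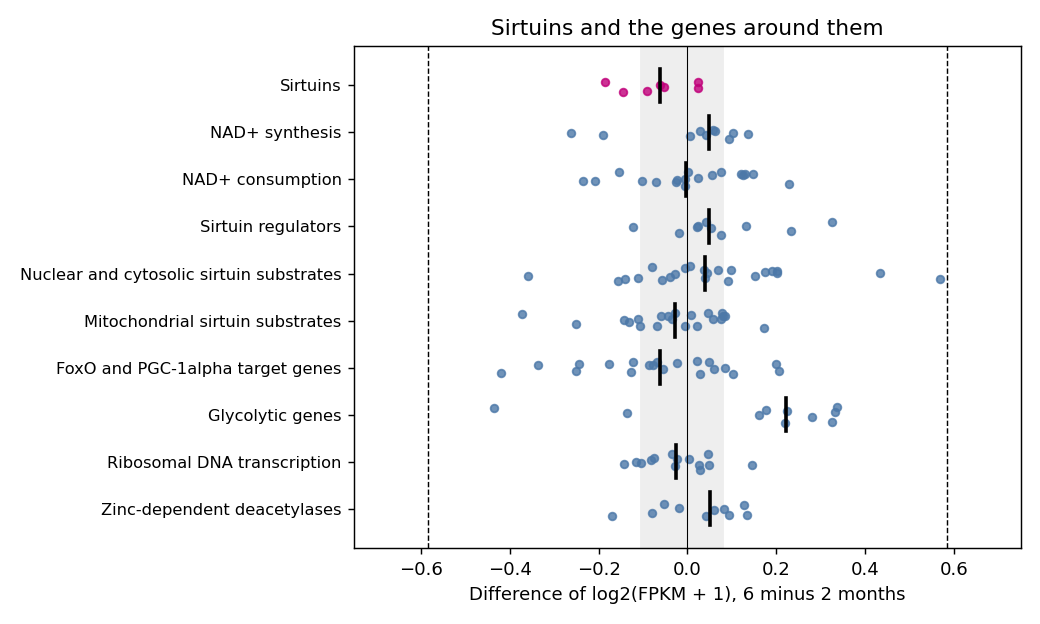
Difference of log2(FPKM + 1), 6 minus 2 months (x axis), for the expressed genes of each list (points), with the list's median (black bar), the quartiles of all expressed genes (grey band) and a 1.5-fold difference (dashed lines). All points lie inside the dashed lines, the sirtuin median is -0.06, and the glycolytic list has the highest median, 0.22.

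Of 19 genes of NAD+ synthesis, 10 were expressed, 8 with the higher value at 6 months and 2 with the lower. Their median log2 difference was 0.05, and 46.3% of all expressed genes had the higher value at 6 months. The salvage pathway, which rebuilds NAD+ from nicotinamide, was represented by Nampt, its rate-limiting enzyme, with 14.0 FPKM at 2 and 15.5 FPKM at 6 months. Nmnat1, the nuclear enzyme that completes NAD+, had 3.61 and 3.63 FPKM, and Nmnat3, the mitochondrial form, had 3.51 and 3.82 FPKM. Nmnat2, known mainly from neurons, was at 0.0576 and 0.0796 FPKM. Of the route from tryptophan, Afmid, the kynurenine formamidase, was expressed, with 1.40 and 1.10 FPKM, while Qprt was at 0.0691 and 0.0850 FPKM. Ido1 was listed at 0 in both ages, and an exact 0 in this table can be a failed estimate. Afmid, Qprt and Ido1 were named only once their values were known.

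Of the genes that use NAD+ or remove nicotinamide, 18 of 21 were expressed, with a median log2 difference of 0.00. Of these 18, 9 were higher and 9 lower at 6 months, beside 46.3% of expressed genes higher. Parp1, the main poly-ADP-ribose polymerase of DNA repair and a large user of NAD+, had 18.4 FPKM at 2 and 18.7 FPKM at 6 months. Cd38, an enzyme that breaks down NAD+ and is typical of immune cells, was at 0.178 and 0.216 FPKM. Nnmt, which methylates nicotinamide, was listed at 0 at 2 months and had 0.0408 FPKM at 6 months. Of 11 genes of sirtuin regulators, 10 were expressed, with a median of 0.05. At 6 months 8 of these were higher, beside 46.3% of expressed genes, and 2 were lower. Among the regulators, Ccar2 (listed as 2610301G19Rik), a protein inhibitor of Sirt1, had 20.6 and 21.0 FPKM.

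Among nuclear and cytosolic substrates, 23 of 25 genes were expressed, 14 with the higher and 9 with the lower value at 6 months. Over all expressed genes, 46.3% had the higher value at 6 months. Trp53, which encodes p53, had 57.3 and 51.9 FPKM, a log2 difference of -0.14. The FoxO factor gene Foxo1 had 6.22 and 6.73 FPKM, and Foxo3 had 17.5 and 18.8 FPKM. Ppargc1a, the gene of PGC-1alpha, was at 0.434 and 0.285 FPKM, under the filter. The largest differences in the list were those of the clock gene Per2, from 9.44 to 14.5 FPKM with a log2 difference of 0.57, and of the Notch receptor gene Notch1, with 0.43. Arntl, the clock activator that works with Clock, had -0.36. Per2, Notch1 and Arntl were picked with their values in view.

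Of 25 genes of mitochondrial substrates, 21 were expressed, with a median of -0.03. At 6 months 9 were higher, beside 46.3% of expressed genes, and 12 were lower. Sod2, the mitochondrial superoxide dismutase that Sirt3 activates, had 33.9 and 35.8 FPKM. Idh2, another Sirt3 substrate that makes NADPH, had 35.4 and 40.0 FPKM, a log2 difference of 0.17. Glud1, the glutamate dehydrogenase that Sirt4 inhibits, had 44.1 and 42.0 FPKM. Cps1, a urea cycle enzyme on which Sirt5 acts in liver, was listed at 0 in both ages. Acss1, a mitochondrial acetyl-CoA synthetase activated by Sirt3, had the largest difference of the list, from 8.38 to 6.24 FPKM with a log2 difference of -0.37, and was chosen after its values had been seen.

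A list of 20 target genes of FoxO factors and PGC-1alpha had a median of -0.06. In this list 8 genes were higher at 6 months, beside 46.3% of expressed genes, and 12 were lower. In it, catalase (Cat) had 134.1 FPKM at 2 and 99.99 FPKM at 6 months, a log2 difference of -0.42, and Gadd45a had 12.2 and 9.47 FPKM. A list of 14 genes of ribosomal DNA transcription, the process on which Sirt7 acts, had a median of -0.03, with differences between -0.14 and 0.15. Cat and Gadd45a were also picked in this way.

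Of 10 glycolytic genes, a class that Sirt6 is known to repress, 8 had the higher value at 6 months, beside 46.3% of expressed genes, with a median of 0.22 beside -0.01 over expressed genes. The 3 genes with a log2 difference of over 0.32 in this direction were Pfkfb3, Pfkm and Pdk1, with log2 differences of 0.34, 0.33 and 0.32, where 2.95% of expressed genes passed the bar in this direction. Pdk4, a kinase that holds back the entry of pyruvate into mitochondria, went the other way, with -0.44. Ldha, lactate dehydrogenase A, had 372.4 FPKM at 2 and 433.9 FPKM at 6 months. Beside them, Sirt6 itself had a log2 difference of 0.02. These 5 genes were picked with their values in view, and the list was not tested.

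The zinc-dependent deacetylases Hdac1 to Hdac11 do not use NAD+, and as a family they are the enzymes most like the sirtuins in reaction. Of the 11, 10 were expressed, with a median log2 difference of 0.05 beside -0.06 for the sirtuins. At 6 months 6 were higher, beside 46.3% of expressed genes, and 4 were lower. The sum over the 11 was 248.7 FPKM at 2 and 250.5 FPKM at 6 months. Hdac1 and Hdac2, the catalytic subunits of nuclear corepressor complexes, differed in direction, Hdac1 with 62.5 and 66.8 FPKM and Hdac2 with 70.1 and 62.1 FPKM at 2 and 6 months. Hdac3 had 35.9 and 38.1 FPKM, close to the levels of Sirt7 and Sirt2. The difference between the families has no replicate check and was not tested.

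The labelled cell type was checked against marker genes, and their directions can be read beside the 46.3% of expressed genes with the higher value at 6 months. All 5 markers of type II taste cells were expressed, with a sum of 212.4 FPKM at 2 and 219.4 FPKM at 6 months. Of these, 3 were higher at 6 months, Tas1r3 the most with a log2 difference of 0.47, and 2 were lower. All 5 markers of type III cells were expressed and higher at 6 months, with a sum of 31.3 and 36.3 FPKM. Of 3 type I markers, Entpd2 and Kcnj1 were expressed and both were lower at 6 months, Slc1a3 was under the filter, and the sum was 76.1 and 66.4 FPKM. The general taste cell markers Krt8 and Kcnq1 were both lower at 6 months, with a sum of 246.0 and 206.4 FPKM. Basal keratinocyte markers were also high, with a sum of 3573 and 3589 FPKM, but differed in direction. Krt5 and Trp63 were lower at 6 months, with log2 differences of -0.15 and -0.17, and Krt14 was higher, with 0.25. Of the suprabasal and cornified epithelial markers, 4 of the 6 listed were expressed. Krt10, Krt1 and Lor were lower at 6 months, and their sum without Krt4 was 1482 FPKM at 2 and 830.5 FPKM at 6 months. Krt4 had 7334 FPKM at 2 months and was listed at 0 at 6 months, so it passed the filter only through its 2 month value. Krt13 was listed at 0 in both ages, and Flg had no value. An exact 0 can be a failed estimate, so the Krt4 values may not show a fall. Of 5 skeletal muscle markers, 4 were expressed and all 4 were higher at 6 months, with a sum over the 5 of 7.13 and 16.4 FPKM. The lingual gland markers summed to 100.6 and 27.9 FPKM. Most of this difference came from Lipf, with 83.7 and 14.7 FPKM, while Dcpp1 had 16.3 and 13.0 FPKM and Lpo and Bpifa2 were under the filter. The leukocyte markers summed to 125.1 and 131.3 FPKM, mostly from Cd74. The fibroblast markers summed to 42.4 and 27.6 FPKM, nearly all from Dcn, and the adipocyte markers to 0.737 and 3.52 FPKM, nearly all from Fabp4. A 1.5-fold difference was reached by the 4 expressed muscle markers and Fabp4, all higher at 6 months. It was also reached by Krt10, Lor, Lipf and Dcn, which were lower, and by Krt4 through its listed 0. Over all expressed genes the share was 2.77% in either direction. The part of these cells in the levels of the sirtuins was not tested.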

How the data were processed

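CV/Fol taste cell RNA of C57BL/6 mice was sequenced after poly A selection from 3 pools at 2 months and 3 pools at 6 months. Per the labels, the authors mapped reads to GRCm38/mm10 with TopHat2 2.0.7, quantified RefSeq genes as FPKM with Cufflinks 2.1.1 and compared the ages with Cuffdiff. The deposited table holds 1 FPKM value per gene and age, and the 6 month column was recognised by the letter in the sample titles. The design text names 3 months in 1 place, and the sample labels name 2 months. The table also holds p-values of the authors' own comparison, which were not used. Depth is unknown, since FPKM does not carry it.

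Differences are log2(FPKM + 1) at 6 months minus that at 2 months, which understates changes of weakly expressed genes. Genes whose mean over both ages was 1 FPKM or more were called expressed. With 1 value per age no test was possible. The members and lists were chosen with earlier results of these data known. Named genes were the sirtuins, preset pathway genes, preset cell type markers, neighbours of the loci and the genes nearest in level. Further list genes were named after their values had been seen, as stated where they appear. Pseudocount, filter, fold and scaling were varied. The fold rule and the motif search were tested on simulated data. Promoters came from RefSeq (GRCm38.p6), and gene models from GENCODE M21. Symbols were matched directly or through RefSeq synonyms. Python 3.11.15, numpy 2.4.6, pandas 2.3.3 and matplotlib 3.10.9 were used.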

Additional observations from a re-analysis of the deposited data

How the results depend on the processing

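No paired analysis was possible because only pooled values of each age were used, and for the same reason no replicate was left out. The count of sirtuins past the fold was 0 with a pseudocount of 0.1, without the filter, with one of 5 FPKM, at a log2 fold of 0.32 or a fold of 2, and with the 6 month values scaled to the 2 month upper quartile or median. These scalings multiplied the 6 month values by 1.03 and 1.01, and with either of them Sirt5 and Sirt6 were still the 2 sirtuins with the higher value at 6 months. The log2 difference of Sirt7 moved from -0.05 to -0.01 with the upper quartile. The order of the 7 levels was the same at either age. The count of pathway genes past the fold was 0, and became 2 with a pseudocount of 0.1 (Per2 and Pdk4), 1 with either scaling (Per2) and 11 at a log2 fold of 0.32. Of 78 values for 26 named genes under the alternatives, 4 moved by at least 0.1, all in genes under 1 FPKM with the pseudocount of 0.1, and 0 changed sign. Depth and the spread between pools are unknown, so these settings do not show how a repeat of the experiment would vary.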

Other observations

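Lysine acetyltransferases, the enzymes that add the groups which sirtuins remove, were looked up after the data had been seen. All 12 listed genes were expressed, 8 with the higher and 4 with the lower value at 6 months, beside 46.3% of expressed genes with the higher value, and the median log2 difference was 0.06. A log2 difference of 0.32 in size was reached by 0 of the 12, beside 7.18% of expressed genes. Ncoa3 had the largest difference, with 10.4 and 12.8 FPKM at 2 and 6 months, a log2 difference of 0.27. Ep300, which encodes the coactivator p300, had 15.3 and 17.6 FPKM, and its relative Crebbp had 7.93 and 8.52 FPKM. Kat2a had 25.7 and 26.3 FPKM, and Kat5 had 24.7 and 23.2 FPKM. Kat2a was the most abundant of the 12.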
